A study of Mus musculus with 16 samples.

Results

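Oxidative phosphorylation genes encode the nuclear subunits of the respiratory chain and of ATP synthase. They were taken as every probeset on the array whose annotated symbol begins as those of complex I (Nduf), complex II (Sdh), complex III (Uqcr and Cyc1), complex IV (Cox4 to Cox8) and complex V (Atp5), with pseudogenes left out. The rule found 89 genes among 22206 gene probesets, each on 1 probeset and all protein coding in RefSeq. Complex I held 35 of them, complex II 4, complex III 9, complex IV 20 and complex V 17. The symbols of another 4, Sdhaf1 to Sdhaf4, match the rule, although these genes encode assembly factors of complex II and no subunits, which leaves 85 subunits. Ndufa4 and Ndufa4l2 were counted with complex IV, where the Ndufa4 protein is found.

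Complexes I to IV pass electrons from NADH and succinate to oxygen, complexes I, III and IV pump protons across the inner mitochondrial membrane, and complex V uses the returning protons to make ATP. The subunits are built from both genomes of the cell, and the nuclear genes fall into catalytic subunits, accessory subunits and, mainly in complex IV, pairs of tissue-restricted isoforms. The sensory neurons of the nose need ATP for ion pumping at the cilia and for transduction, and get it from glycolysis and from mitochondria in the dendrite and cell body.

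The cells came from the olfactory mucosa of S100a5-tauGFP mice, in which green fluorescent protein (GFP) reports S100a5, a gene that olfactory sensory neurons express according to their activity. Male and female mice of 7 to 12 weeks, 24 in all and all carrying the reporter, were housed singly for 40 h in chambers supplied with clean air at 3.1 L/min. From 26 h onward, over 14 h, an odorant or filtered air as vehicle was given in 10 s pulses at intervals of 20 min. Each pool of 3 mice was sorted by flow cytometry into a GFP+ and a GFP- sample, so that 8 pools gave 4 groups of 4 Clariom S arrays: GFP+ with odorant, GFP- with odorant, GFP+ with vehicle and GFP- with vehicle. Bourgeonal is the stimulus in the sample labels, whereas the title of the series has indole, and it is therefore called the odorant here. The comparisons address which genes differ between sorted cells with and without reporter signal and which respond to the odorant. The 2 fractions of a pool share their mice, and nothing else in the labels ties an odorant array to a vehicle array of the same number.

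Values are deposited log2 signals of each probeset, and levels of different probesets are not compared, because each responds to its RNA differently. The level of mature olfactory sensory neuron markers was 14.96 to 15.45 on all arrays, with 2 of the 14 markers at background in every group, so both fractions carried the RNA of such neurons. The GFP- fraction also carried RNA of other cell types. The mean level of 16 immune markers was 10.60 to 12.28 in it, with 0 of 16 at background in either group. In GFP+ cells it was 6.16 to 7.02, with 7 (odorant) and 6 (vehicle) at background, while immature neuron, progenitor, sustentacular and microvillar markers were also more abundant in the GFP- fraction. Array medians were 6.29 to 6.38 (GFP+) and 6.64 to 6.76 (GFP-). The GFP- arrays 1 and 2 of the odorant group had the highest and the lowest deposited median of the oxidative phosphorylation genes. Results that rest on them are given with and without them. By the median over these genes, array 1 lay no further from its group (0.41) than the odorant GFP+ array 2 did from its own (-0.43). The number of arrays limits the precision throughout.

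Of the 89 genes, 77 exceeded the background level on all 16 arrays, where background is the 95th percentile of 23 control probesets that match no mouse sequence. Another 4 exceeded it on some arrays, namely Cox7a1 on 14 of 16, Atp5k and Uqcr11 on 3 and Ndufa7 on 1. The other 8 never exceeded it. These were Cox4i2, Cox6a2, Cox6b2, Cox7b2, Cox8b, Cox8c, Ndufa4l2 and Sdhaf4, of which 7 are isoforms that other tissues use (lung, muscle, testis) or that low oxygen induces. Their common partners Cox4i1, Cox6a1, Cox6b1, Cox7b, Cox8a and Ndufa4 exceeded background on every array, as did Cox7a2, the common partner of Cox7a1. Signal above background thus came from the widely expressed set of complex IV subunits. Cox7a1, the isoform of subunit 7a known from heart and skeletal muscle, was the exception among the tissue-restricted isoforms, above background on most arrays. Signal at background does not show that a gene is silent, and Ndufa7, Atp5k and Uqcr11 were also at background on most arrays. Of 12 muscle markers, 10 were at background in each group.

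Promoter sequence was available for 73 of the 89 genes in a RefSeq table (mouse build GRCm38.p6), as the 250 bases before each annotated start. Atp5a1, Atp5mpl, Cox4i1, Cox4i2, Cox6a2, Cox6c, Cox8c, Cyc1, Ndufa2, Ndufa4l2, Ndufb9, Ndufs1, Sdhc, Uqcrb, Uqcrc2 and Uqcrq had no entry. The promoters shown belong to Ndufa9 and Cox7a1, which were higher in GFP+ cells, and to Atp5b and Ndufa1, the least and the most variable of the genes above background on all arrays. The Ndufa9 window is chr6:126849145-126849394 on the minus strand, and that of Cox7a1 is chr7:30183921-30184170 on the plus strand. Atp5b has chr10:128083057-128083306 on the plus strand and Ndufa1 has chrX:37191239-37191488 on the minus strand. Each is written 5′ to 3′ and ends at the base before the start, and capitals mark matches to the motifs named after them.
Ndufa9: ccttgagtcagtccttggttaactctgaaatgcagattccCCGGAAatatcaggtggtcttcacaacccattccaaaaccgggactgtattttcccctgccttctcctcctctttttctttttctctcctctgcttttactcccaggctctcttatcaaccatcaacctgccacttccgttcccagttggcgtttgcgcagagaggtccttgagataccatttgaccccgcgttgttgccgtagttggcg
Cox7a1: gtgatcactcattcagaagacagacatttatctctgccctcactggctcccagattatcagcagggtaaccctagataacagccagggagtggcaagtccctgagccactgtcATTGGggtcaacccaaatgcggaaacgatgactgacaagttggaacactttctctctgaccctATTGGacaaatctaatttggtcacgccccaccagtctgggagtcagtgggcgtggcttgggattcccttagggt
Atp5b: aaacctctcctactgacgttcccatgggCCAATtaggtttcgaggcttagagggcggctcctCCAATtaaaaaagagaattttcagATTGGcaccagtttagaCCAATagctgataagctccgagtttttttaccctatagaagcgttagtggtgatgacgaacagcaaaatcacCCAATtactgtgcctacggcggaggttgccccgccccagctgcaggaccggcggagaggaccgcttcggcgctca
Ndufa1: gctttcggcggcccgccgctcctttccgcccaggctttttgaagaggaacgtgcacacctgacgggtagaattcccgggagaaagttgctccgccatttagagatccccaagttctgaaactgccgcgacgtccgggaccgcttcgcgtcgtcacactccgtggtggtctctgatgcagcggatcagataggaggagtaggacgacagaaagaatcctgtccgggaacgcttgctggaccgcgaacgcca

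The motifs were those of factors known for respiratory genes, searched as exact letters on both strands. GCGCANGCG is the core of the site of NRF1, a regulator of nuclear genes for mitochondria. It occurred before 15 of the 73 genes (20.5%), against 8% of 17491 protein-coding genes with a window. CCGGAA, the core bound by GABP and other ETS factors, occurred before 22 of 73 (30.1%), against 16.9% of all, and was the single match of the Ndufa9 window. CCAAT, bound by NF-Y, occurred before 31 (42.5%), against 39.5% of all. Atp5b held 5 such matches and Cox7a1 held 2, which in Cox7a1 read ATTGG on the printed strand. AAGGTCA, for estrogen-related receptors, was found before 5 genes (6.85%, against 4.18%), AAGATGGC, for YY1, before 1 (1.37%, against 1.77%) and TATAAA, the TATA box, before 7 (9.59%, against 13.7%). The Ndufa1 window held none of the 6 strings, and none of the strings contains another. These are matches of letters and not measured binding, and the shares are descriptions without a test.

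On each array the median over the 89 genes was taken as their common level. It averaged 12.64 ± 0.16 (SD, n = 4) in GFP+ and 12.56 ± 0.12 (SD, n = 4) in GFP- cells with vehicle, and 12.55 ± 0.21 (SD, n = 4) in GFP+ and 12.42 ± 0.39 (SD, n = 4) in GFP- cells with odorant. The 4 vehicle GFP- arrays lay at 12.47, 12.46, 12.58 and 12.71, and the vehicle GFP+ arrays at 12.84, 12.61, 12.44 and 12.68. With odorant, the GFP- arrays lay at 12.89, 11.94, 12.46 and 12.38, and the GFP+ arrays at 12.61, 12.27, 12.78 and 12.56. In the deposited signals the groups overlapped. Both the highest and the lowest such level belonged to the GFP- arrays of the odorant group, numbers 1 and 2. Relative to array medians, the level was 6.15 to 6.46 in GFP+ and 5.71 to 6.04 in GFP- cells with vehicle, without overlap. With odorant it was 5.92 to 6.44 and 5.30 to 6.13, which overlap. The highest was then the vehicle GFP+ array 1, and the lowest the odorant GFP- array 2. The higher GFP- array medians enter this scale.

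**Figure D1:**
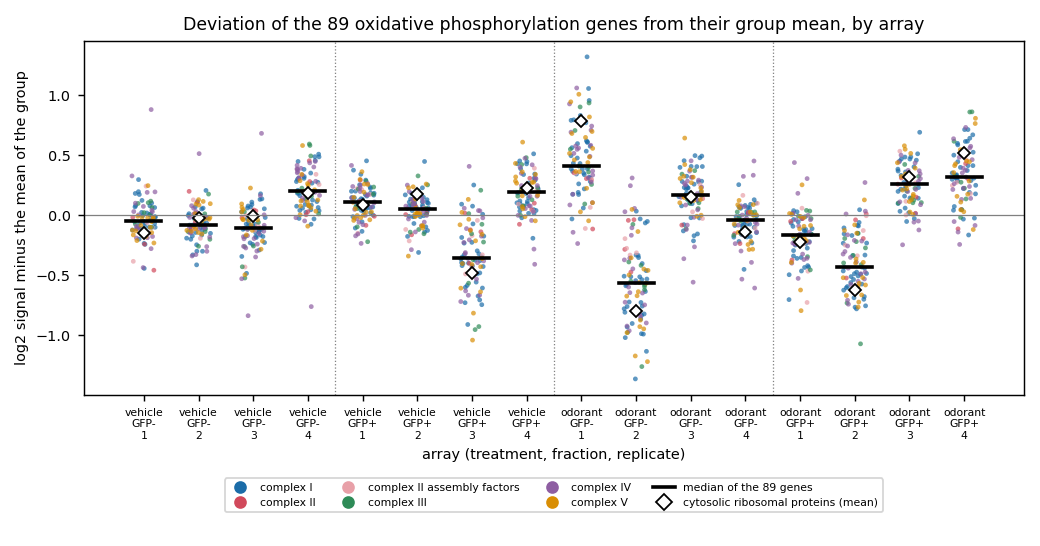
Log2 signal of each of the 89 oxidative phosphorylation genes minus that gene's mean over the 4 arrays of its group, for all 16 arrays (points coloured by complex; black bars, median of the 89 genes; diamonds, median of 64 cytosolic ribosomal protein genes, which the key of the figure calls a mean). The median runs from -0.57 on the odorant GFP- array 2 to 0.41 on array 1 of the same group, and the diamonds lie on the same side of 0 as the bars on all 16 arrays.

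Within a group the genes deviated together from array to array. More than 66.7% of them lay on the same side of their group means on 14 of the 16 arrays, while 44.4% to 53.8% of all gene probesets lay below theirs on any array. On the odorant GFP- array 2, 83 of the 89 genes were below their group means, with a median deviation of -0.57. On the odorant GFP- array 1, 83 were above, with a median of 0.41. In GFP+ cells with odorant, 83 genes were below on array 2 (median -0.43) and 83 above on array 3 (median 0.26). With vehicle, the widest deviations were those of the GFP+ array 3, where 76 genes were below (median -0.36), and of the GFP- array 4, where 82 were above (median 0.20). The deviations of the 4 arrays of a group sum to 0 for each gene, so the arrays of a group are not independent here.

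Other gene lists showed which RNAs shared this pattern. Cytosolic ribosomal proteins (64 genes) deviated to the same side as the oxidative phosphorylation genes on all 16 arrays, from -0.80 to 0.79, and mitochondrial ribosomal proteins (76 genes) also on all 16, from -0.32 to 0.24. Mitochondrial import genes did so on 13 arrays, with deviations of -0.36 to 0.24, and assembly factors of complex III and of complex V on 15. Glycolysis genes lay on the same side on 5 arrays, and their deviations stayed within -0.09 to 0.10. Citric acid cycle genes, enzymes of the mitochondrial matrix, did so on 11, within -0.15 to 0.08. Mature neuron markers stayed within -0.17 to 0.07. Immune markers deviated by -0.96 to 0.98 and were on the same side on 10 arrays, with their highest deviation on the odorant GFP- array 1, where sustentacular markers deviated by 0.98 as well. The part of these markers and of the ribosomal protein level in the deviations was not tested.

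The size of the deviations differed among the genes. The within-group standard deviation, pooled over the 4 groups, ran from 0.06 to 0.75 over the 77 genes above background, with a median of 0.35. The smallest belonged to Atp5b (0.06) and Atp5a1 (0.07), the beta and alpha subunits that form the catalytic head of ATP synthase. Ndufs1 (0.12) and Ndufv1 (0.13), which carry electrons in complex I, and Uqcrc1 (0.13), a core protein of complex III, came next. The largest belonged to small subunits outside the catalytic sites, among them Ndufa1 of complex I (0.75), Atp5md (0.72) and Atp5e (0.69) of complex V, and Uqcr10 (0.71) and Uqcrh (0.69) of complex III. These genes were named after their values were seen.

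**Figure D2:**
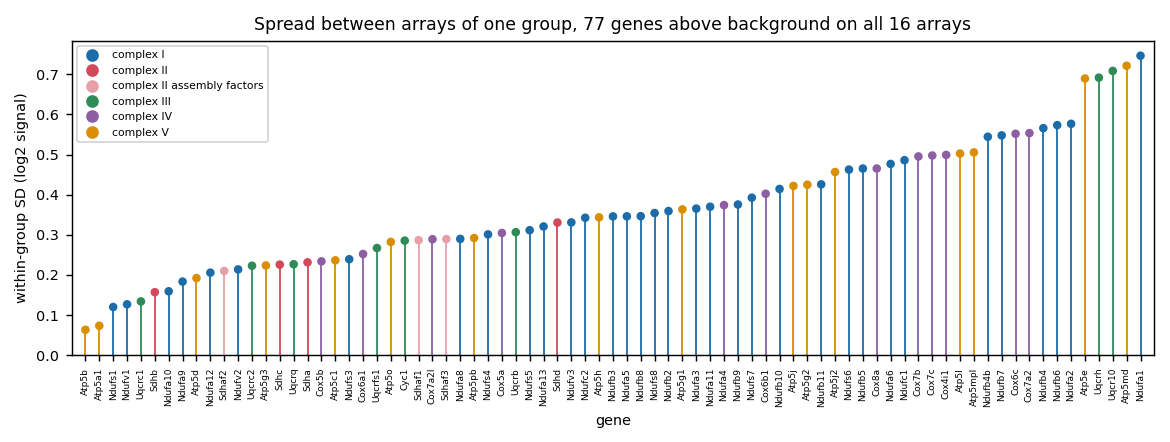
Within-group SD of the log2 signal, pooled over the 4 groups of 4 arrays, for each of the 77 oxidative phosphorylation genes above background on all 16 arrays, in ascending order and coloured by complex. Atp5b (0.06) and Atp5a1 (0.07) stand lowest and Ndufa1 (0.75) highest, and every complex but complex II and its assembly factors reaches beyond 0.5.

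Ndufa1 shows the span. Its signal on the 4 GFP- arrays with odorant was 11.67, 8.99, 10.84 and 9.90, and on the vehicle GFP- arrays 10.77, 10.98, 10.78 and 11.49. The odorant arrays 1 and 2 thus differed by 2.68 in log2 signal within 1 group. Atp5b on the same odorant arrays read 17.27, 17.11, 17.35 and 17.25, and Atp5a1 read 17.16, 17.26, 17.20 and 17.22. The signals of Atp5b and Atp5a1 thus hardly followed the others. Over all 16 arrays they read 17.11 to 17.36 (Atp5b) and 17.08 to 17.38 (Atp5a1), with the highest mean signals among the 77 genes. Whether signal this high still follows its RNA in full was not tested, which limits the reading of their small SDs and differences. A set of 14 catalytic and core subunits of complexes I, II, III and V, put together after the values were seen, had a median SD of 0.22, and the other 63 genes above background had 0.37. Across the 77 genes, the SD had a Spearman correlation of -0.18 with the mean signal and of -0.42 with the length of the gene in the genome. Both are descriptions over genes that share the same 16 arrays.

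The comparison of GFP+ with GFP- cells over both treatments gave 4 genes that were higher in GFP+ cells: Ndufa9 and Ndufs1 of complex I, Sdhc of complex II and Cox7a1 of complex IV. The first 3 exceeded background on all arrays and Cox7a1 on all but 2 vehicle GFP- arrays. Their differences were small, 1.20-fold to 1.54-fold. A single gene, Cox6b2, was lower, and it was at background on all arrays. Of all 22206 gene probesets, 13.6% were called higher and 12.3% lower, so the 89 genes were called less often than the probesets at large in either direction, a difference that was not tested. The median difference over the 89 genes was 0.04, against 0.10 over all probesets, and 29 of 89 were negative. It was -0.06 without the odorant GFP- array 2 and -0.01 without arrays 1 and 2. A call is an adjusted p below 0.05 in limma, by a two-sided test with the Benjamini-Hochberg method applied to the 22206 probesets. In sorted pools, fewer cells of a type and less RNA per cell cannot be told apart.

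**Figure D3:**
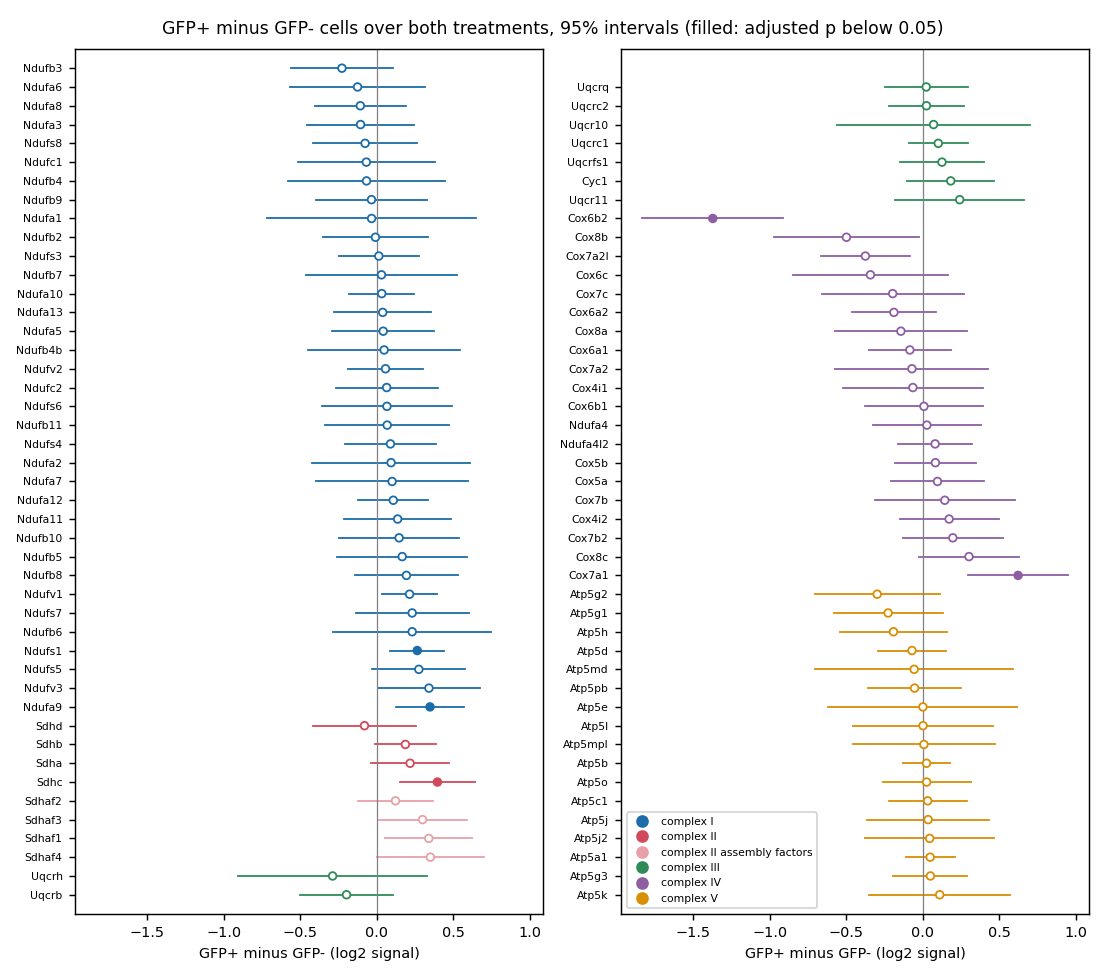
Difference between GFP+ and GFP- cells over both treatments in log2 signal (x axis) with its 95% interval for the 89 oxidative phosphorylation genes, grouped and coloured by complex. Filled points passed the threshold (adjusted p below 0.05). They are Ndufa9, Ndufs1, Sdhc and Cox7a1 to the right of 0 and Cox6b2, at background on all arrays, to the left.

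Ndufa9 encodes an accessory subunit of complex I close to where ubiquinone binds. Its signal was 12.74, 12.68, 12.68 and 13.11 on the vehicle GFP- arrays and 13.07, 12.72, 13.28 and 13.05 on the vehicle GFP+ arrays. With odorant it was 12.89, 12.58, 12.46 and 12.59 in GFP- cells and 13.11, 13.04, 13.07 and 13.17 in GFP+ cells. The fractions did not overlap with odorant and overlapped with vehicle, and GFP+ cells were higher in 7 of 8 pools. The difference was 0.35 ± 0.11 (SE, n = 8 arrays per fraction), which is 1.27-fold, with an adjusted p of 0.020 in limma.

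Ndufs1 encodes the largest subunit of complex I, which carries iron-sulfur clusters of the electron path. Its signal was 11.98, 12.03, 11.94 and 12.38 in GFP- and 12.36, 12.22, 12.45 and 12.41 in GFP+ cells with vehicle. With odorant it was 12.04, 12.04, 12.17 and 12.03 in GFP- and 12.35, 12.37, 12.27 and 12.30 in GFP+ cells. All GFP+ arrays exceeded all GFP- arrays with odorant, and with vehicle the GFP- array 4 lay among the GFP+ arrays. All 8 pools had more signal in the GFP+ fraction, by 0.03 to 0.52. The difference was 0.27 ± 0.08 (SE, n = 8 arrays per fraction), which is 1.20-fold, with an adjusted p of 0.027 in limma. The adjusted p was 0.050 to 0.054 without the vehicle GFP- array 1, 2 or 3, and 0.065 after quantile normalization.

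Sdhc encodes a membrane anchor of succinate dehydrogenase. It read 11.20, 11.64, 11.48 and 11.45 in GFP- and 11.74, 11.58, 11.61 and 12.05 in GFP+ cells with vehicle. With odorant it read 11.04, 11.12, 11.30 and 11.17 in GFP- and 11.28, 11.46, 11.91 and 11.96 in GFP+ cells. The fractions overlapped under both treatments, and GFP+ cells were higher in 7 of 8 pools. The difference was 0.40 ± 0.12 (SE, n = 8 arrays per fraction), which is 1.32-fold, with an adjusted p of 0.018 in limma.

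Cox7a1 had the largest difference of the 4. It read 7.23, 6.72, 6.38 and 7.29 in GFP- and 7.88, 7.43, 7.35 and 8.19 in GFP+ cells with vehicle, where 2 of the 4 GFP- arrays were at background. With odorant it read 7.19, 7.00, 7.15 and 7.08 in GFP- and 7.46, 7.22, 7.74 and 7.76 in GFP+ cells. The fractions did not overlap within either treatment, and GFP+ cells were higher in all 8 pools, by 0.22 to 0.97. The difference was 0.62 ± 0.16 (SE, n = 8 arrays per fraction), which is 1.54-fold, with an adjusted p of 0.0056 in limma.

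**Figure D4:**
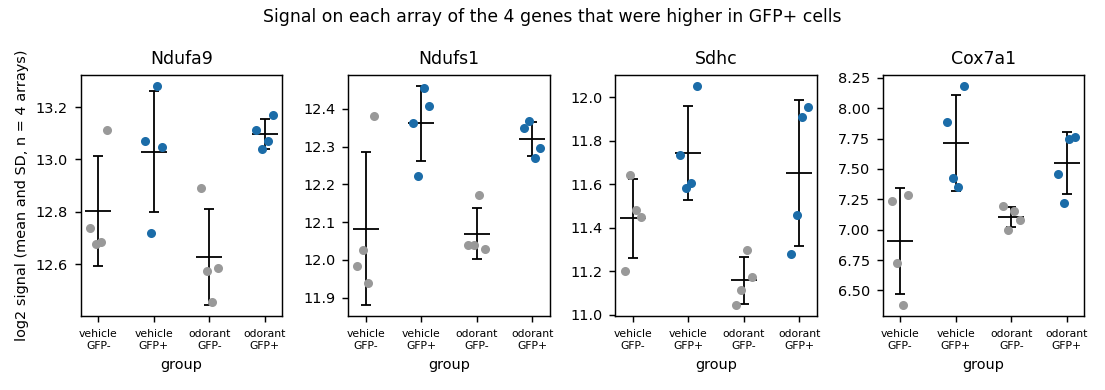
Log2 signal on each array (points; grey, GFP- cells; blue, GFP+ cells) with the mean and SD of the 4 arrays of a group for Ndufa9, Ndufs1, Sdhc and Cox7a1. The fractions of Cox7a1 do not overlap within either treatment and those of Ndufa9 and Ndufs1 do not overlap with odorant. The fractions of Sdhc overlap under both. Of all probesets, 22.9% do not overlap with vehicle and 16.9% with odorant. The y axes do not start at 0 and differ between genes.

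With the odorant GFP- arrays 1 and 2 left out, an alternative chosen after the data were seen, Ndufa9 and Cox7a1 were called higher, and Ndufs1 (0.26, adjusted p = 0.066 in limma) and Sdhc (0.35, adjusted p = 0.069 in limma) were not. The paired fit, which takes the pool as a replicate block, called these 4 genes and also Sdhaf1 and Sdhaf3, assembly factors of complex II, as higher. It called 2 genes lower, Cox6b2 and Cox7a2l. Cox7a2l, which takes part in joining complexes III and IV into supercomplexes, differed by -0.38 ± 0.14 (SE, n = 8 arrays per fraction), with an adjusted p of 0.054 without the block and 0.030 with it in limma. With array medians subtracted, the median of all probesets moved from 0.10 to 0.44, since GFP- arrays had the higher medians, and that of the 89 genes moved from 0.04 to 0.38. Then 46 of the 89 genes were called higher and 1 lower, beside 68.2% and 8.7% of all probesets. Relative to the median of all probesets, the 89 genes had a median of -0.05 on either scale. Subtracting a constant from each array shifts all probesets alike and cannot change this value.

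None of the catalytic and core subunits outside these calls passed the threshold. Ndufv1, which binds NADH in complex I, read 13.98 to 14.37 in GFP- (median 14.15, n = 8) and 14.18 to 14.48 in GFP+ cells (median 14.42, n = 8). It was higher in the GFP+ fraction of all 8 pools, and its difference of 0.21 (95% interval 0.03 to 0.40) had an adjusted p of 0.075 in limma. Sdha and Sdhb, the catalytic subunits of succinate dehydrogenase, differed by 0.22 (-0.04 to 0.47) and 0.19 (-0.01 to 0.39). In complex III, Cyc1 (cytochrome c1) differed by 0.18 (-0.10 to 0.47), Uqcrfs1 (the Rieske iron-sulfur protein) by 0.13 (-0.15 to 0.40) and Uqcrc1 by 0.10 (-0.09 to 0.30). Ndufs7, an iron-sulfur subunit of complex I, differed by 0.23 (-0.14 to 0.60).

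In complex IV, Cox4i1, Cox5a and Cox5b, the common nuclear subunits around the catalytic core, differed by -0.06 (-0.52 to 0.40), 0.10 (-0.21 to 0.40) and 0.08 (-0.18 to 0.35). Among the ATP synthase subunits, Atp5b differed by 0.03 (95% interval -0.13 to 0.18), Atp5a1 by 0.05 (-0.11 to 0.21) and the gamma subunit gene Atp5c1 by 0.03 (-0.22 to 0.29). Atp5b read 17.11 to 17.36 in GFP- and 17.21 to 17.34 in GFP+ cells, with medians of 17.28 and 17.30 (n = 8 each). Over the 89 genes, the 95% intervals of 64 (71.9%) lay within 1.5-fold in both directions and those of 88 (98.9%) within 2-fold. Of all probesets, 62.2% and 86.4% did.

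Among the isoform pairs, the widely expressed members Cox6a1, Cox6b1, Cox7a2, Cox7b, Cox8a and Ndufa4 differed by -0.08, 0.01, -0.07, 0.14, -0.14 and 0.03 between the fractions, with no call. Of the isoforms at background, Cox6b2, known from testis, read 3.84 to 5.50 in GFP- and 3.03 to 3.73 in GFP+ cells, and no fold is given because both fractions were at background. Cox8b, Cox6a2, Cox4i2, Cox7b2, Cox8c and Ndufa4l2 were at background on all 16 arrays as well, which leaves their differences without a reading, and none was called over both treatments. The genes Atp5g1, Atp5g2 and Atp5g3, which encode the same mature subunit c of the proton-turned ring, differed by -0.23 (-0.58 to 0.13), -0.30 (-0.71 to 0.11) and 0.05 (-0.19 to 0.29). Ndufb4 and Ndufb4b are near-identical copies whose probes could share RNA, and both are uncertain for that reason.

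By complex, the median difference over both treatments was 0.07 in complex I (10 of 35 negative), 0.20 in complex II (1 of 4), 0.07 in complex III (2 of 9), -0.03 in complex IV (10 of 20) and 0.01 in complex V (6 of 17). The complex II assembly factors had 0.32, with 0 of 4 negative. The complexes were not tested against each other.

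Taken per pool, the fraction difference of the 89 genes had no single direction in the deposited signals. Its median was 0.08, 0.0043, -0.34 and -0.08 in vehicle pools 1 to 4, with 57, 45, 22 and 33 genes higher in GFP+ cells. In odorant pools 1 to 4 it was -0.49, 0.31, 0.21 and 0.49, with 14, 78, 74 and 82 genes higher. Over all probesets the median stayed between 0.02 and 0.11 in the 8 pools. Cytosolic ribosomal proteins had medians of -0.50, -0.61, -1.35 and -0.71 with vehicle and -1.40, -0.24, -0.22 and 0.24 with odorant. Of the 89 genes, 3 (Ndufs1, Ndufv1 and Cox7a1) were higher and 1 (Cox6b2) lower in GFP+ cells of all 8 pools, which is 4.49% against 20.1% of all probesets. With array medians subtracted, the median of the 89 genes was 0.37, 0.39, 0.12 and 0.23 in vehicle pools 1 to 4. In odorant pools 1 to 4 it was then -0.10, 0.59, 0.52 and 0.77, negative in pool 1 alone. That subtraction raises the difference of all probesets as well. Odorant pool 1, the pool with the lowest median, holds the odorant GFP- array 1. That array had the highest deposited level of the 89 genes in the study and of immune markers in its group. The part of those markers in the value of the pool was not tested.

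**Figure D5:**
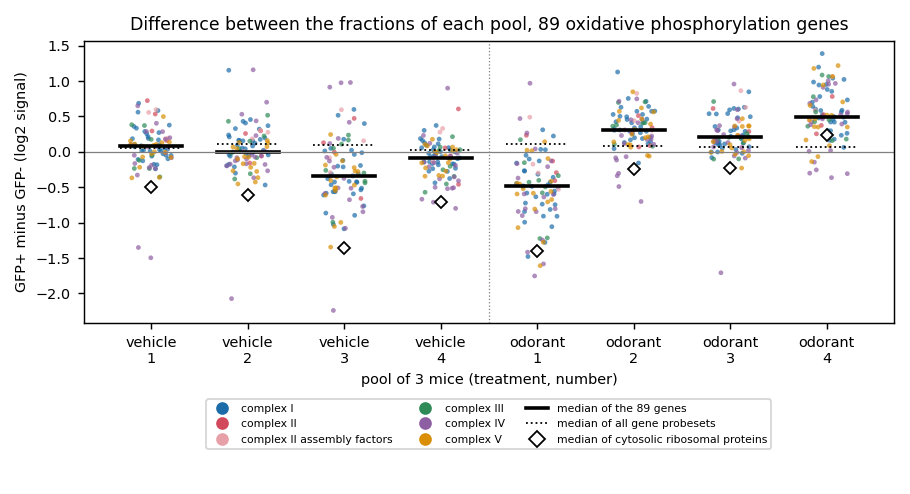
GFP+ minus GFP- log2 signal within each of the 8 pools of 3 mice for the 89 oxidative phosphorylation genes (points coloured by complex; solid bars, their median; dotted bars, median of all 22206 gene probesets; diamonds, median of 64 cytosolic ribosomal protein genes). The solid bars run from -0.49 in odorant pool 1 to 0.49 in odorant pool 4, while the dotted bars stay between 0.02 and 0.11.

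Within each treatment few genes were called between the fractions. With vehicle, 1 of 89 was higher (Cox8c, at background on all arrays) and 1 lower (Cox6b2), beside 7.76% and 9.97% of all probesets. The median difference was -0.08 with 60 of 89 negative, against 0.08 over all probesets with 40.8% negative, and it was 0.05 without the vehicle GFP+ array 3. Cox7a1 differed by 0.81 ± 0.25 (SE, n = 4 arrays per fraction), with an adjusted p of 0.0503 in limma and of 0.0071 with the replicate block. Cox8c was no longer called without any 1 of the vehicle GFP+ arrays 1 to 4 or of the GFP- arrays 2 and 3 (adjusted p 0.052 to 0.074 in limma). With odorant, 0 of 89 were higher and 1 lower (Cox6b2), beside 3.57% and 7.84% of all probesets, and 4 had an unadjusted p under 0.05 (4.49%, against 22.2% of all probesets). Cox6b2 was no longer called there without the GFP+ array 1, 2 or 3 or the GFP- array 1 or 3 (adjusted p 0.055 to 0.059 in limma). The median was 0.15 with 13 of 89 negative, against 0.10 over all probesets with 35.3% negative. It was -0.05 without the odorant GFP- array 2, 0.30 without array 1 and 0.08 without both (30 of 89 negative).

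In GFP+ cells, the comparison of odorant with vehicle called 0 of the 89 genes in limma, beside 0% of all probesets, and 0 had an unadjusted p under 0.05 (3.82% of all probesets did). The median difference was -0.02, with 50 of 89 negative. It was 0.14 with 16 negative without the odorant GFP+ array 2 and -0.13 with 75 negative without the vehicle GFP+ array 3. The 95% intervals of all 89 lay within 2-fold in both directions, as did those of 95.2% of all probesets, and those of 54 (60.7%) within 1.5-fold, as did 60.5% of all. The smallest p values belonged to Cox8c (at background), to Uqcrfs1 (-0.19, 95% interval -0.51 to 0.12), Cyc1 (-0.21, -0.54 to 0.13) and Uqcrq (0.18, -0.18 to 0.54), subunits of complex III, and to Cox8b (at background). Uqcrfs1 read 12.84, 12.61, 12.69 and 12.93 with vehicle and 12.61, 12.35, 12.78 and 12.56 with odorant, which overlap. The 4 genes called higher in GFP+ than in GFP- cells differed by 0.07 (Ndufa9, -0.26 to 0.39), -0.04 (Ndufs1, -0.31 to 0.23), -0.10 (Sdhc, -0.51 to 0.32) and -0.17 (Cox7a1, -0.63 to 0.30) between the treatments.

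In GFP- cells, 0 of 89 genes were called between odorant and vehicle in limma, beside 0% of all probesets, and 5 had an unadjusted p under 0.05 (5.62%, against 6.84% of all). The median difference was -0.24 with 79 of 89 negative, against -0.01 and 51.2% over all probesets. It was -0.05 without the odorant GFP- array 2, -0.40 without array 1 and -0.19 without both (74 of 89 negative). The number of genes with an unadjusted p under 0.05 in limma was then 2, 21 and 3, in the same order. The matching shares of all probesets were not computed. Cytosolic ribosomal proteins had a median of -0.39, with 60 of 64 negative and 0 called. The 5 genes were Sdhaf2 (-0.40, 95% interval -0.77 to -0.04), Sdhd (-0.43, -0.86 to -0.0041), a membrane anchor of succinate dehydrogenase, and Cox6a2, Cox4i2 and Cox8c, which were at background. Sdhaf2, which helps attach the flavin of Sdha, read 10.91, 10.99, 10.89 and 11.10 with vehicle and 10.92, 10.29, 10.54 and 10.52 with odorant. Its array 1 with odorant lay among the vehicle arrays. No gene of the 89 had arrays of both treatments that did not overlap in either fraction, beside 2.3% of all probesets in GFP+ and 4.16% in GFP- cells.

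The interaction, the amount by which the odorant difference of GFP+ cells exceeded that of GFP- cells, called 0 of 89 genes in limma, beside 0% of all probesets, and 1 gene, Cox8c at background, had an unadjusted p under 0.05 (1.12%, against 4.92% of all). The median was 0.24 with 10 of 89 negative, against 0.01 over all probesets, and it was 0.03 without the odorant GFP- array 2, 0.38 without array 1 and 0.18 without both. The median half-width of a 95% interval over the 89 genes was 0.68. The next smallest p values belonged to Uqcrq (0.48, 95% interval -0.02 to 0.98), Cox5b (0.37, -0.14 to 0.88), Ndufa10 (0.30, -0.11 to 0.71) and Sdhaf2 (0.34, -0.14 to 0.81).

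Genes that work beside the complexes were read from separate lists in the comparison of the fractions over both treatments. Of all probesets, 13.6% were called higher and 12.3% lower there, and the lists were not tested against these shares. Of 16 complex I assembly factors, 0 were called, and of 18 for complex IV, 2 were higher (Cox15, needed for heme A, 0.35 ± 0.10, SE, n = 8 arrays per fraction, adjusted p = 0.014 in limma, and Cox14). Of 6 for complex III, 2 were higher (Ttc19 and Uqcc1), and of 5 for complex V, 0. Among 16 genes for mobile carriers, coenzyme Q synthesis and nucleotide exchange, 4 were higher (1 of them, Slc25a31, at background) and 0 lower, among them Ckmt1, the mitochondrial creatine kinase (0.37), and Coq8a, of coenzyme Q synthesis (0.43). Of 17 citric acid cycle genes 1 was higher (Dlat, of pyruvate dehydrogenase, 0.41). Of 76 mitochondrial ribosomal proteins 4 were higher, and of 19 import genes 0. Of 17 regulators of mitochondrial biogenesis 1 was higher, the coactivator Ppargc1a (0.74 ± 0.15, SE, n = 8 arrays per fraction, adjusted p = 0.00070 in limma), and 1 lower (Esrrg, at background).

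Glycolysis genes were called in both directions in the same comparison, beside 13.6% higher and 12.3% lower over all probesets. Of 18 measured, 5 were higher and 6 lower in GFP+ cells (1 of the 6, Hk2, at background), with Ldha, lactate dehydrogenase A, at -3.12 ± 0.25 (SE, n = 8 arrays per fraction). The glucose transporter gene Slc2a3 was also lower and at background on all GFP+ arrays. Of 64 cytosolic ribosomal proteins, 34 were lower and 0 higher, with a median of -0.59. Of 16 immune markers 13 were lower and of 14 mature neuron markers 6 were higher, with median differences of -4.64 and 0.14. These shifts of cell-type markers lie beside every difference between the fractions given for the 89 genes, and their part in them was not tested.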

How the data were processed

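The authors deposited log2 probeset signals made with Affymetrix Expression Console, per the submitters' processing notes. Its version and settings (background, scaling, probe summary) are not stated in the labels or the table. Values were used as deposited. Of 28846 rows, 6640 controls were left out, and 19572 of 22206 gene probesets carried 1 symbol, 0 several and 2634 none. All 19572 matched RefSeq genes by ID (GRCm38.p6). Between 46.7% and 50.9% of probesets exceeded background.

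Each of 6 comparisons was fitted with limma 3.58.1 (lmFit, eBayes) in R 4.3.3. Comparisons within 1 treatment or fraction used 8 arrays, the others all 16. The fits were also run on simulated data with independent noise for each gene. Those data lack the deviations that the genes share here, so they do not test the fits under such deviations. Plots used matplotlib 3.10.9. Pairing by pool follows from 24 mice in pools of 3. Same-pool deviations correlated at 0.11 to 0.16 with vehicle and 0.014 to 0.36 with odorant. Labels do not say that pools are separate cohorts, so p-values measure the spread between these arrays.

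The genes and lists were chosen with earlier results of these data known. Genes described singly were the largest calls per complex, catalytic subunits, isoform pairs, the 5 smallest p values per odorant comparison and the interaction, and 2 per other list. Others were named after their values were seen. Alternatives were array medians subtracted, quantile normalization, dim probesets left out, a replicate block, spread from all 16 arrays, and leaving out arrays.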

Additional observations from a re-analysis of the deposited data

Results flagged for a closer look

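In each group of 4 arrays, the highest or lowest value of a gene was compared with the others by Dixon's ratio of gap to range at its 95% level. It was applied to the 38 oxidative phosphorylation genes that the rule for described genes chose, which leaves out those named for their spread (such as Ndufa1), and to the median of all 89, which made 156 groups. Of these, 9 were past it (5.77%), where chance gives about 1 in 20. They are values without a test of a cause. The vehicle GFP+ array 3 accounted for 4 of them, as the lowest of its group: Cox7a2l at 11.63 (the others 12.03 to 12.10), Cox7b at 12.68 (13.52 to 13.60), Ndufs7 at 13.19 (13.71 to 13.79) and Uqcrq at 11.50 (11.78 to 11.82). On that array 76 of the 89 genes lay below their group means.

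Ndufs7 was also low on the vehicle GFP- array 1, at 13.03 (13.58 to 13.67). Atp5g3 was low on the odorant GFP- array 2, at 13.55 (14.17 to 14.27). Ndufa9 was high on the vehicle GFP- array 4, at 13.11 (12.68 to 12.74), which lies among the GFP+ arrays. Ndufs1 was high on the odorant GFP- array 3, at 12.17 (12.03 to 12.04). Cox6b2 was low on the vehicle GFP+ array 1, at 3.03 (3.25 to 3.26), where it was at background.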

How the results depend on the processing

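The 0 calls between odorant and vehicle in either fraction and in the interaction held under each alternative run. Between the fractions the counts moved. With array medians subtracted, 46 genes were higher over both treatments (median 0.38), 21 with vehicle (0.29) and 19 with odorant (0.46), where the median of all probesets moved as well. Quantile normalization gave 7 higher and 2 lower over both, 2 and 3 with vehicle, and 1 higher with odorant. Leaving out dim probesets gave 1 higher (Cox7a1) and 2 lower with vehicle, and 1 higher and 0 lower with odorant. The replicate block gave 2 lower over both and 2 higher with vehicle, and changed no other count by over 1.5 times. Spread from all 16 arrays gave 2 higher with vehicle and 1 with odorant. Without the odorant GFP- arrays 1 and 2, 2 were higher and 2 lower over both. Leaving out 1 array at a time gave 3 to 6 higher and 1 to 3 lower over both, 0 to 2 and 1 to 2 with vehicle (Cox7a1 higher without the GFP+ array 3 or GFP- array 4, Atp5g2 lower without the GFP+ array 4), and 0 to 1 and 0 to 1 with odorant (Sdhaf4 or Ndufa9 higher without the GFP+ or GFP- array 1). The 6 higher, without the odorant GFP+ array 1, added Sdhaf1 and Sdhaf4, and the 3 lower, without the odorant GFP- array 2, were Atp5g2, Cox6b2 and Cox7a2l. The median over both then ran from -0.06 to 0.11, with the lowest without that array, from -0.13 to 0.05 with vehicle and from -0.05 to 0.30 with odorant. In GFP- cells the odorant median ran from -0.40 to -0.05, in GFP+ cells from -0.13 to 0.14, and the interaction's from 0.03 to 0.39. The cause of these changes was not tested. In the labels, number-matched odorant and vehicle arrays share only a number, and whether they share more was not tested. Their same-number correlations were -0.10 to 0.30, highest at number 4 (0.25 in GFP+ and 0.30 in GFP- cells). Those of number 4 exceeded the same-pool correlations with vehicle (0.11 to 0.16). Signal at background limits the 12 of the 89 genes that did not exceed it on every array.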
